A study of Argyrosomus regius with 12 samples.

Results

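The genes described here are 200 assembled genes of the meagre spleen whose RNA stood low in 2 of 3 lipopolysaccharide (LPS) pools at 4 h and differed little between LPS and saline pools at 24 h. They were chosen from 42480 Trinity genes, which are groups of transcripts that the Trinity assembler builds from overlapping reads without a genome. A gene was eligible when its mean over the 3 PBS 4 h pools was at least 5 CPM (the count scaled to a common library total), and when its LPS 24 h mean divided by its PBS 24 h mean, each with 0.5 CPM added, lay between 0.67 and 1.5. Of the 42480 genes, 15925 passed the first condition and 11850 passed both. The 11850 were ordered by a score, the log2 of the lowest PBS 4 h pool minus the log2 of the higher of LPS 4 h replicates 1 and 3, each with 0.5 CPM added, and the 200 highest were taken. LPS 4 h replicate 2 has no part in the score. The score therefore fixes the low level in the 2 scored LPS pools, and the window fixes the likeness of the 24 h groups. Neither is a finding.

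Young meagre of 22 g (Argyrosomus regius, a sea fish) were injected into the body cavity, and the study took the spleens at 4 h and at 24 h. Treated fish received 10 µg per g of fish of LPS from Photobacterium damselae subsp. piscicida Lg41/01, and control fish received phosphate buffer saline (PBS). The 4 groups were LPS at 4 h, PBS at 4 h, LPS at 24 h and PBS at 24 h. Each group held 3 pools of 4 fish, and each pool gave 1 library, so a pool averages its fish and the spread between pools stands for separate sets of animals. All fish were injected, so no group shows the spleen without an injection.

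LPS is a building block of the outer membrane of Gram-negative bacteria, and vertebrate immune cells react to it as a sign of infection. The spleen of bony fish filters blood and holds macrophages, lymphocytes, thrombocytes and red blood cells. Within hours of such a stimulus, immune tissues typically switch on genes for cytokines and other defence proteins while the RNA of other genes declines. In pooled tissue, fewer cells of a type and less RNA per cell cannot be told apart. The files pair no Trinity identifier with a gene name, so the members are described by their values, and neither their functions nor the spleen's defining cell markers were analysed here. No sequence of them was analysed either. CPM is not divided by transcript length, so levels are not compared between genes.

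Library totals ran from 29614365 to 56556752 counts, and between 91.1% and 95.1% of the Trinity genes had at least 1 count in each library. The 10 most abundant genes of a library took from 6.78% to 20.2% of its counts, with the highest share in PBS 24 h replicate 3. LPS 4 h replicate 2 is treated apart below because most members were near the PBS 4 h level in it, while the score picked them for low levels in replicates 1 and 3. Its label was kept, and edgeR calls in the comparisons between groups are given with and without it. DESeq2 and limma-voom were fitted only with it included.

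Summed over the 200 members, the level was 891, 6025 and 811 CPM in LPS 4 h replicates 1 to 3, against 7446, 5847 and 6917 CPM in PBS 4 h replicates 1 to 3. At 24 h the sums were 5562, 5297 and 5868 CPM in LPS pools, against 6183, 7018 and 4881 CPM in PBS pools. Replicates 1 and 3 of LPS 4 h lay far below the other 10 libraries, and LPS 4 h replicate 2 lay inside the range of the PBS 4 h pools. The LPS 24 h pools averaged 5575 ± 286 CPM and the PBS 24 h pools 6027 ± 1077 CPM (SD, n = 3 each), and these groups overlapped. As a share of all counts, the members held 0.0891% and 0.0811% in LPS 4 h replicates 1 and 3, against 0.585% to 0.745% in PBS 4 h pools.

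Gene by gene, the 2 scored LPS pools stood far below the control level. The median member was at 13.9% of its PBS 4 h mean in LPS 4 h replicate 1 and at 12.7% in replicate 3. Of the 200 members, 65 had a mean of replicates 1 and 3 under 10% of the PBS 4 h mean and 174 had one under 20%. Over all 11850 eligible genes, the median of log2(CPM + 0.5), relative to the PBS 4 h mean, was -0.27 in LPS 4 h replicate 1 and -0.43 in replicate 3. On raw totals, eligible genes as a whole thus also lay lower in these 2 libraries, by much less than the members at -2.57 and -2.63. TMM factors, which lessen the weight of a few abundant genes in the totals, were lowest in these 2 libraries, at 0.923 and 0.799. The part of scaling in the lower medians was not tested. The levels in the scored pools chose the members and carry no test.

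**Figure D1:**
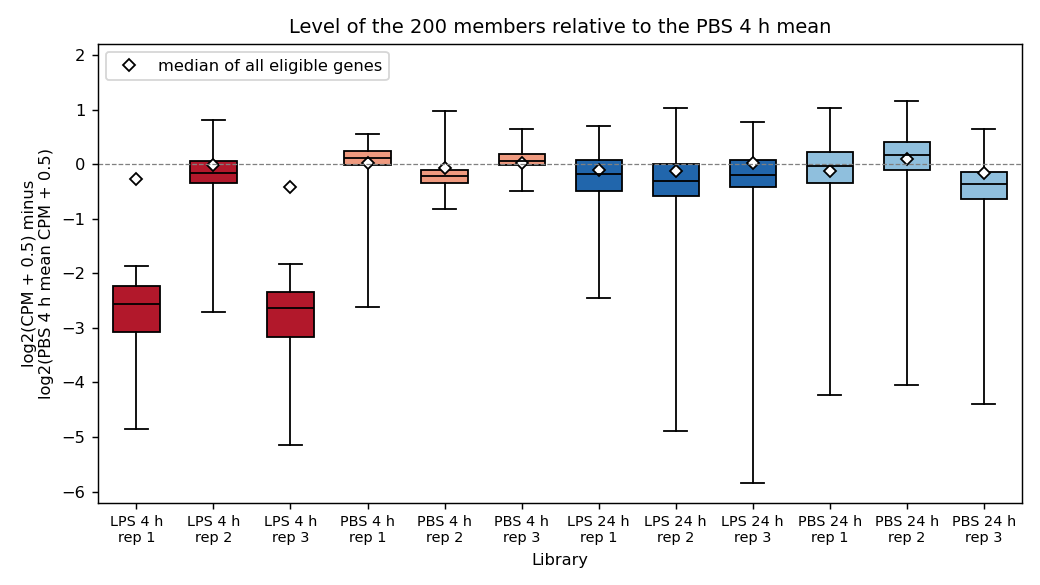
Level of the 200 members in each of the 12 libraries, as log2(CPM + 0.5) minus log2 of the PBS 4 h mean CPM + 0.5. Boxes span the quartiles, the line is the median, whiskers reach the lowest and highest member, and open diamonds give the median of all 11850 eligible genes. The medians are -2.57 and -2.63 in LPS 4 h replicates 1 and 3 and lie between -0.37 and 0.17 in the other 10 libraries.

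The 2 scored LPS pools gave like values for the same genes, which the score favours because it takes the higher of the 2. The log2 difference of replicate 1 minus replicate 3 had a median of 0.11 over the members, with quartiles of -0.15 and 0.33, beside a median of 0.13 with quartiles of -0.14 and 0.39 over all eligible genes. The score ran from 4.22 for the first member to 1.76 for the last, with a median of 2.12. Just inside the threshold, the member at rank 200 had a score of 1.761, with 3.62 CPM in the highest scored LPS pool against 13.5 CPM in the lowest PBS 4 h pool. Just outside, the gene at rank 201 had a score of 1.758, with 4.07 CPM in the highest scored LPS pool against 14.9 CPM in the lowest PBS 4 h pool. The list thus ends in a continuous run of scores, and 810 of the 11850 eligible genes (6.84%) had a score of at least 1.

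TRINITY_DN580_c0_g3 had the highest score. It was at 14.6, 569 and 11.8 CPM in LPS 4 h replicates 1 to 3, against 557, 281 and 465 CPM in PBS 4 h pools. Replicates 1 and 3 lay far below all PBS 4 h pools, while replicate 2 lay above the highest of them. At 24 h it was at 274, 227 and 273 CPM in LPS pools, against 259, 254 and 215 CPM in PBS pools, which overlapped. Its 24 h levels, at 59.3% of the PBS 4 h mean under LPS and 55.9% under PBS, lay below all PBS 4 h pools in both treatments. All 3 of its isoforms, the assembled transcript forms of the gene, were at 1 CPM or more in PBS 4 h pools. They were lower in both scored LPS pools than in every PBS 4 h pool, which the choice of the gene favours.

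TRINITY_DN14864_c1_g1 came next and was the 1 member with no counts in the scored LPS pools. It had 0, 244 and 0 counts in LPS 4 h replicates 1 to 3, or 0, 7.43 and 0 CPM, against 8.27, 8.93 and 9.33 CPM in PBS 4 h pools. Against a floor of 3 counts in each of these 2 LPS libraries, it was at least 113-fold lower there than its PBS 4 h mean of 8.84 CPM. The floor covers counting error only. At 24 h it was at 6.51, 7.76 and 6.31 CPM in LPS pools, against 8.07, 9.22 and 10.4 CPM in PBS pools. Here every LPS 24 h pool lay below every PBS 24 h pool, within the window of the rule.

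The next members repeated the same shape at other levels. The member at rank 3 was at 1.17, 26.1 and 1.35 CPM in LPS 4 h replicates 1 to 3, against 44.9, 31.3 and 36.2 CPM in PBS 4 h pools. For the member at rank 4 the values were 1.17, 27.1 and 1.26 CPM in LPS 4 h pools, against 40.2, 27.4 and 42.3 CPM in PBS 4 h pools. In both, LPS 4 h replicate 2 stood under the lowest PBS 4 h pool. The member at rank 6 differed from these at 24 h. It was at 0.620, 35.6 and 0.604 CPM in LPS 4 h pools, against 34.1, 16.1 and 36.6 CPM in PBS 4 h pools, and at 42.7, 57.9 and 38.5 CPM in LPS 24 h pools, against 45.8, 64.7 and 45.5 CPM in PBS 24 h pools. Every 24 h pool of it lay above every PBS 4 h pool, whatever the treatment.

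**Figure D2:**
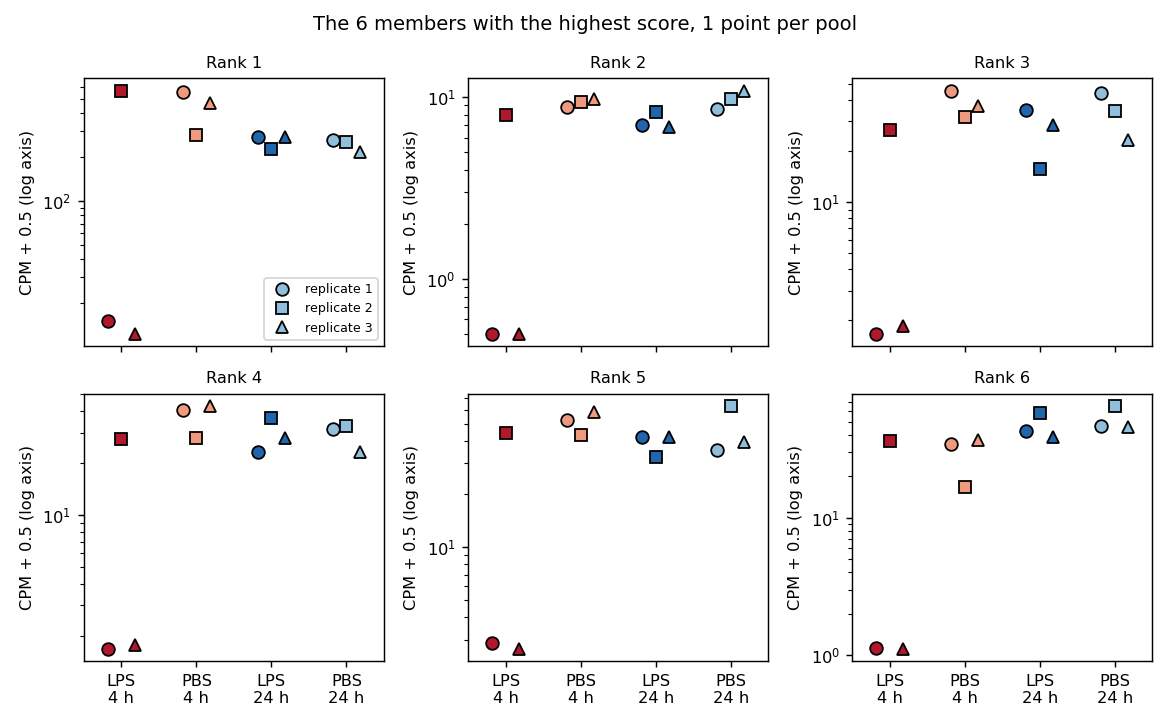
Level of the 6 members with the highest score in every pool, as CPM + 0.5 on a log axis. Each point is 1 pool of 4 fish, symbols give the replicate number and colours the group. In all 6 panels LPS 4 h replicates 1 and 3 lie at the bottom and LPS 4 h replicate 2 lies well above them, as the highest point at rank 1 and within the range of the other groups at ranks 2 to 6; at rank 2 the 2 low points are at 0 CPM.

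The low values rested on enough counts for most members. The median member had 94.5 counts in LPS 4 h replicate 1 and 76 in replicate 3, and fewer than 10 counts were found for 5 members in replicate 1 and for 4 in replicate 3. In every other library each member had at least 39 counts.

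Because the choice itself used these libraries, each was also left out of the rule in turn and the 200 genes chosen again. Chosen without LPS 4 h replicate 1, the new list held 160 of the members, and replicate 1 lay below every PBS 4 h pool for 200 of its 200 genes, against 55.0% of the eligible genes. Its median level there was 15.0% of the PBS 4 h mean, against 82.3% over the eligible genes. Chosen without LPS 4 h replicate 3, the new list held 161 of the members, and replicate 3 lay below every PBS 4 h pool for 197 of 200 genes, against 62.5% of the eligible genes, with medians of 13.3% and 73.6% of the PBS 4 h mean. Each of the 2 scored pools was thus low in genes chosen without it. The PBS 4 h pools, however, served both for the choice and as the baseline, and the rule had already set replicates 1 and 3 as its pair. These counts are therefore a description. With PBS 4 h replicates 1, 2 and 3 left out in turn, the pool left out lay above both scored LPS pools for 188, 200 and 200 of 200 genes, against 60.4%, 58.1% and 60.4% of the eligible genes. These choices still picked both scored LPS pools as low, which nearly fixes such counts, so nothing is read from them.

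The test of LPS against PBS at 4 h across all genes used edgeR's quasi-likelihood test on counts summed per Trinity gene, with a gene called at a Benjamini-Hochberg adjusted p below 0.05. With all 3 LPS pools, 0 of 200 members were called by edgeR, beside a background of 0.00307% of 32542 genes. All 200 members had a negative log2 fold change, which the score favours, with a median of -1.29 beside -0.01 over all genes tested. At an unadjusted p below 0.05 there were 116 members, all lower under LPS, beside 8.08% of all genes. DESeq2, which gave a p for only 171 members in its fit of all libraries, called 36, all lower, beside 1.82% of genes. The limma-voom fit called 0, and also 0 over all genes. Without LPS 4 h replicate 2, edgeR called 199 members, all lower, beside 11.2% of 33524 genes, and the median log2 fold change of the members was -2.61. This contrast chose the members, so nothing is read from these counts.

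The 1 member not called without replicate 2 was at rank 194 (log2 fold change -4.50, edgeR adjusted p = 0.0596), and its pools disagreed in several groups. It was at 2.13, 9.87 and 2.75 CPM in LPS 4 h replicates 1 to 3, against 10.6, 132 and 60.0 CPM in PBS 4 h pools. At 24 h it was at 11.9, 1.80 and 0.690 CPM in LPS pools, against 3.14, 3.64 and 2.73 CPM in PBS pools. PBS 4 h replicates 2 and 3 stood high, and the gene was low at 24 h in both treatments. It was the 1 member for which a 24 h pool did not lie above both scored LPS pools.

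**Figure D3:**
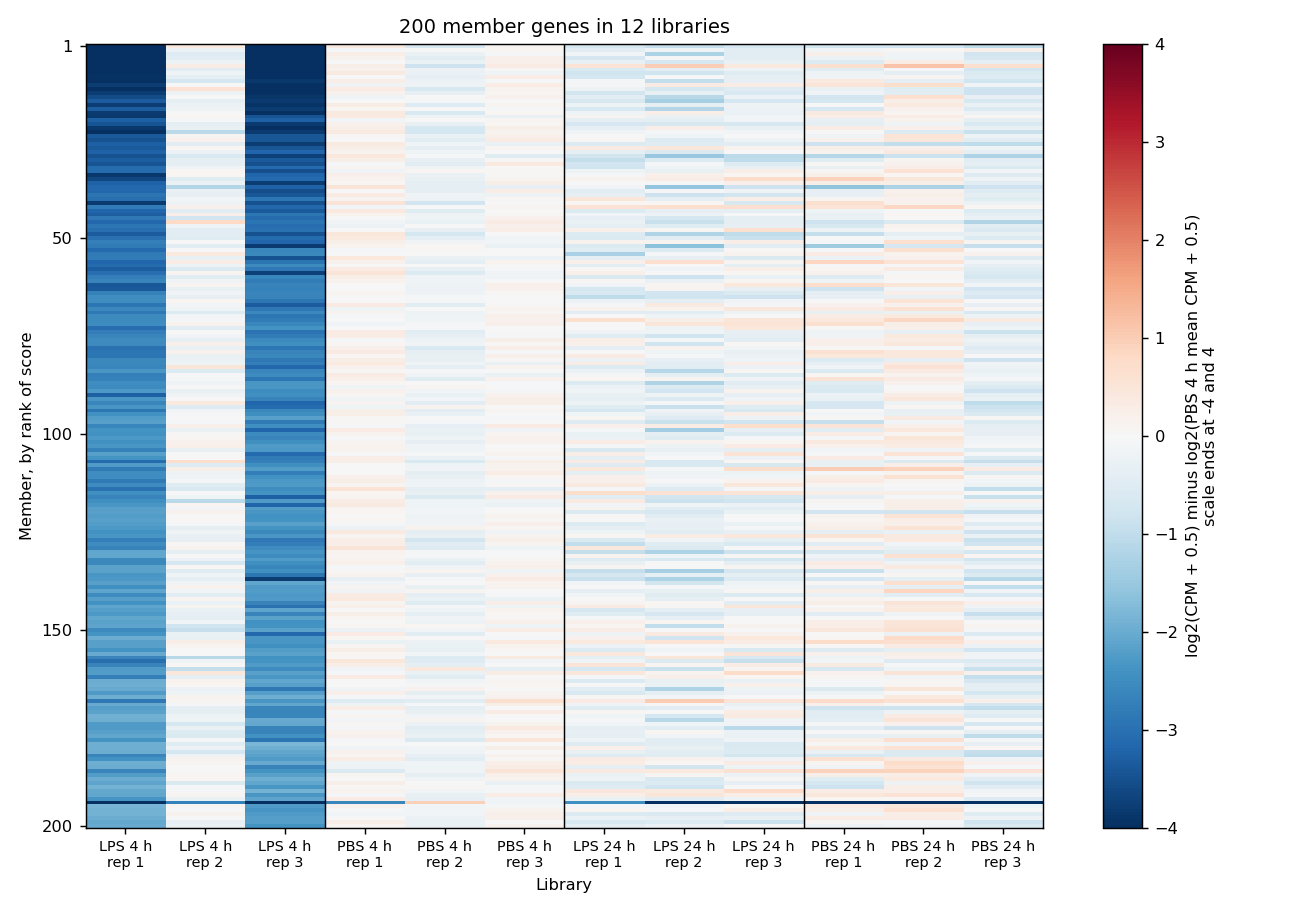
The 200 members (rows, by rank of score) in the 12 libraries (columns), coloured by log2(CPM + 0.5) minus log2 of the PBS 4 h mean CPM + 0.5, with blue for lower and red for higher. LPS 4 h replicates 1 and 3 are blue throughout, the other columns are mostly pale, and the row at rank 194 stands out as low at 24 h.

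LPS 4 h replicate 2 is the 1 LPS 4 h library that the score did not use, and for most members it was near the PBS 4 h level. Relative to the PBS 4 h mean, the median member was at 88.9% in replicate 2, with quartiles of 77.6% and 104%, against 99.3% with quartiles of 88.3% and 110% over the eligible genes. Replicate 2 lay above both other LPS 4 h pools for all 200 members, beside 60.1% of the eligible genes, in a comparison with the pools that the score picked as low. It lay below every PBS 4 h pool for 70 members (35.0%), beside 23.8% of the eligible genes, and above every PBS 4 h pool for 18 members (9.0%), beside 23.1%. The PBS 4 h pools were chosen to be high by the score, which by itself places replicate 2 lower in this comparison.

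The 24 h pools give a comparison for replicate 2 that no scored library enters, although the window used the ratio of their group means. The genes tested in the fit below, unlike the members, did not have to meet the window or the 5 CPM condition. Replicate 2 lay within the range of the 6 pools at 24 h for 155 members (77.5%), beside 84.0% of the eligible genes. It lay below all 6 for 23 (11.5%), beside 6.48% of the eligible genes, and above all 6 for 22 (11%), beside 9.55%. With TMM-scaled totals, which lessen the weight of a few abundant genes and were added after seeing the data, it lay below all 6 for 38 members (19.0%), beside 9.11%, and above all 6 for 21 (10.5%), beside 8.73%. In a fit of replicate 2 and these 6 pools, with the contrast of replicate 2 minus the mean of the LPS 24 h and PBS 24 h groups, edgeR called 0 of 200 members, beside a background of 0.0265% of 34023 genes. The lowest adjusted p among the members was 0.288. At an unadjusted p below 0.05 there were 9 members lower in replicate 2, beside 1.0% of genes, and 7 higher, beside 1.7%. DESeq2 called 2 members, both higher in replicate 2, beside 0.0883% of genes, and limma-voom called 0, beside 0.0588%. The median log2 fold change was -0.08, with quartiles of -0.28 and 0.12, beside -0.03 over all genes tested. Against the 24 h pools, the log2 fold changes of replicate 2 over the members ran from -1.26 to 1.49. The levels of replicates 1 and 3 were given against another baseline, the PBS 4 h mean. On that baseline replicate 2 ran from 14.6%, at rank 194, to 177%. Replicate 2 is a single library, assumed here to vary like the 24 h pools, and its treatment and time cannot be told apart.

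**Figure D4:**
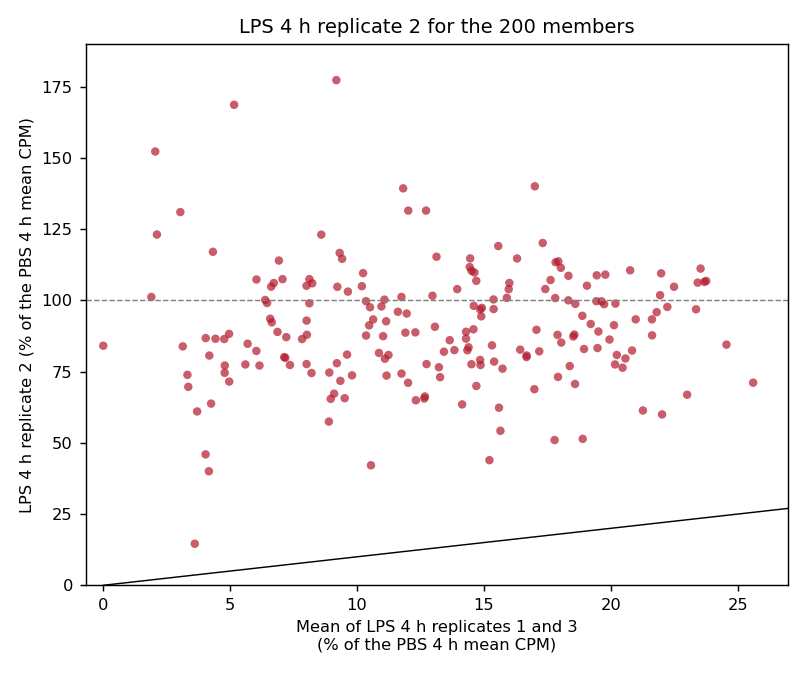
Level of each of the 200 members in LPS 4 h replicate 2 against the mean of LPS 4 h replicates 1 and 3, both as a percentage of the PBS 4 h mean CPM. The dashed line marks 100% and the solid line equal levels. All points lie above the line of equal levels, the horizontal spread ends at 25.6% by the choice of members, and replicate 2 ranges from 14.6% to 177%.

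Against the PBS 4 h mean, which the score picked as high, some members were partly low in replicate 2. A level of at most 50% of that mean was found for 5 members (2.5%), beside 0.987% of the eligible genes, at ranks 23, 37, 117, 157 and 194. At ranks 23, 117 and 157 replicate 2 also lay below every 24 h pool. At rank 37 it was at 2.62 CPM, within the 24 h range of 1.83 to 6.08 CPM. At rank 194 it was at 9.87 CPM, above every 24 h pool except LPS 24 h replicate 1, at 11.9 CPM. The member at rank 23 was at 0.744, 13.2 and 1.57 CPM in LPS 4 h replicates 1 to 3, against 36.9, 17.4 and 31.6 CPM in PBS 4 h pools. The member at rank 117 was at 1.24, 3.93 and 1.48 CPM in LPS 4 h pools, against 11.1, 7.84 and 7.90 CPM in PBS 4 h pools. In both, replicate 2 lay below every PBS 4 h pool and above both other LPS 4 h pools.

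The fold change of replicate 2 against the 24 h pools had the lowest p at ranks 46 and 1, where replicate 2 was high. The member at rank 46 was at 1.17, 25.04 and 1.43 CPM in LPS 4 h replicates 1 to 3, against 12.97, 11.6 and 17.8 CPM in PBS 4 h pools. Its 24 h pools were at 11.6, 7.35 and 10.5 CPM under LPS, against 7.71, 9.22 and 5.86 CPM under PBS. Replicate 2 was thus the highest of the 12 libraries for this gene, with a log2 fold change over the 24 h pools of 1.49 (SE 0.27, edgeR adjusted p = 0.288). The first member, TRINITY_DN580_c0_g3, had a log2 fold change of 1.13 there (SE 0.21, edgeR adjusted p = 0.327).

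At 24 h the median member was not far below the PBS 4 h mean in either treatment, with the likeness of LPS and PBS pools fixed by the window. Every LPS 24 h pool lay above both scored LPS 4 h pools for 199 members, beside 43.3% of the eligible genes, a count that the choice of low LPS 4 h pools nearly fixes. Relative to the PBS 4 h mean, the median member was at 85.3% under LPS at 24 h, with quartiles of 73.9% and 101%, and at 95.2% under PBS, with quartiles of 79.2% and 112%. Over the eligible genes these medians were 94.9% for LPS and 98.2% for PBS. The LPS 24 h pools all lay below the PBS 4 h pools for 50 members (25%), beside 15.4% of the eligible genes, and all above for 6 (3.0%), beside 9.45%. The PBS 4 h pools were chosen to be high, so this shift is a description.

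Within the window, the LPS 24 h to PBS 24 h ratio had a median of 0.902 over the members, beside 0.976 over the eligible genes, and 135 of 200 members (67.5%) had a lower 24 h mean under LPS than under PBS, beside 54.0% of the eligible genes. By edgeR, 0 members were called between LPS and PBS at 24 h, beside a background of 3.25% of genes, and also 0 without LPS 4 h replicate 2 in the fit, beside 6.14%. At an unadjusted p below 0.05 there were 0 of 200 members with all libraries in the fit, beside 3417 genes higher and 2810 lower under LPS of 32542 tested. Without LPS 4 h replicate 2 there were 19 lower under LPS, beside 10.3% of genes, and 9 higher, beside 12.9%. DESeq2 and limma-voom, with all libraries, also called 0, beside 2717 of 32472 genes for DESeq2 and 1062 of 32542 for limma-voom. The pools did not overlap for 18 members lower in LPS (9.0%), beside 7.61% of the eligible genes, and for 8 members higher in LPS (4.0%), beside 10.3%. The window excludes larger differences, so these counts show nothing about return to the control level.

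For PBS 24 h against PBS 4 h, edgeR called 0 members, beside 0.0154% of genes, and also 0 without LPS 4 h replicate 2 in the fit, beside 0.444%. With all libraries, 1 member reached an unadjusted p below 0.05, lower at 24 h, beside 4.38% of genes. Without LPS 4 h replicate 2 there were 28 members lower at 24 h, beside 6.46%, and 9 higher, beside 2.64%. DESeq2 called 1 member, lower at 24 h, beside 0.976% of genes, and limma-voom called 0, and also 0 over all genes. The median log2 fold change was -0.06 over the members and 0.03 over all genes. The PBS 24 h pools lay below every PBS 4 h pool for 21 members (10.5%), beside 7.86% of the eligible genes. The score picked the PBS 4 h pools as high, which by itself favours lower values at 24 h, so all these counts are a description.

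In LPS fish, edgeR called 10 members higher at 24 h than at 4 h, beside 3.14% of genes, and 81 reached an unadjusted p below 0.05 in that direction, beside 13.3%. The count rests on single libraries. It was 0 when any LPS pool except LPS 4 h replicate 2 was left out, beside 0 to 240 genes called higher. Leaving out any PBS pool gave 1 to 5 members, beside 383 to 754 genes called higher of 33343 to 33531 tested. Without LPS 4 h replicate 2 there were 199 calls, beside 15.8% of genes. DESeq2 called 49 members, beside 8.18% of genes, and limma-voom 40, beside 3.34%, all higher at 24 h. The 10 called members had log2 fold changes between 1.23 and 2.13 and lay at ranks 48 to 191. The member at rank 150 was at 23.4, 19.4 and 18.8 CPM in LPS 24 h pools, against 2.85, 9.72 and 3.93 CPM in LPS 4 h replicates 1 to 3, without overlap (log2 fold change 1.83, SE 0.34, edgeR adjusted p = 0.0284). In PBS pools it was at 26.4, 29.0 and 18.1 CPM at 24 h, against 16.3, 17.6 and 23.3 CPM at 4 h. The difference of the LPS effects, 24 h minus 4 h, was called by edgeR for 0 members, beside 0.0154% of genes, although 33 had a more positive effect at 24 h at an unadjusted p below 0.05, beside 8.62%. It was called by DESeq2 for 7, all with a more positive effect at 24 h, beside 2.3%, and without LPS 4 h replicate 2 by edgeR for 199, beside 9.53%. Both comparisons contain libraries that chose the members.

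Some pools held the lowest or highest level for more of the members than of the eligible genes. PBS 4 h replicate 2 was the lowest of the PBS 4 h pools for 151 members (75.5%), beside 49.6% of the eligible genes, but the PBS 4 h pools enter the score, so this is a description. At 24 h, which the score did not use, PBS 24 h replicate 3 was the lowest of the 6 pools for 84 members (42.0%), beside 30.3%, and PBS 24 h replicate 2 was the highest of the 6 for 104 members (52.0%), beside 36.5%. PBS 24 h replicate 3 is the library whose 10 most abundant genes took 20.2% of the counts, and the part of that share in these counts was not tested. With TMM-scaled totals the numbers at 24 h were 63 (31.5%), beside 18.1% of the eligible genes, and 51 (25.5%), beside 15.1%. Over the 6 pools at 24 h the median correlation (Pearson's r of log2(CPM + 0.5)) between pairs of members was 0.407, beside 0.141 between pairs of eligible genes. With TMM-scaled totals it was 0.208, beside 0.0213. Members and eligible genes share the same 6 libraries and their depth, and the difference between these medians was not tested.

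Members were mostly genes with a single assembled form. Of the 200, 172 (86.0%) had 1 isoform, beside 78.5% of the eligible genes, and the most for any member was 9, where eligible genes reached 93. The 28 members with several isoforms held 58 isoforms at 1 CPM or more in PBS 4 h pools, and 49 of these were lower in both scored LPS pools than in every PBS 4 h pool. For 23 of the 28 members this was so for each such isoform. At rank 77 it was so for 0 of 3 isoforms, although the summed gene was at 1.74, 14.4 and 1.90 CPM in LPS 4 h replicates 1 to 3, against 13.4, 11.4 and 12.9 CPM in PBS 4 h pools. The split of reads among isoforms of 1 gene is an estimate, which leaves the single isoforms less certain than their sum. The sums over isoforms chose the members in these same pools, which favours these counts of low isoforms. No share over the isoforms of the eligible genes was computed, so the counts are a description.

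A few members came from the same Trinity read cluster, the part of the identifier before the component and gene numbers, whose genes can share sequence and therefore reads. The 200 members fell into 195 clusters, and 4 clusters gave several members, 9 in all. The cluster of TRINITY_DN580_c0_g3 also gave the member at rank 12, which was at 0.595, 28.2 and 0.165 CPM in LPS 4 h replicates 1 to 3, against 23.4, 11.7 and 20.5 CPM in PBS 4 h pools. In both genes LPS 4 h replicate 2 was the highest of the 12 libraries and PBS 4 h replicate 2 the lowest of the PBS 4 h pools, and whether reads are shared between them was not tested. Another cluster gave the members at ranks 11, 35 and 165, which were at 116%, 134% and 65.9% of the PBS 4 h mean in LPS 24 h pools. The 57 other eligible genes of the members' clusters had a median score of 0.08, beside -0.02 over all eligible genes, and 4 of them (7.02%) had a score of at least 1, beside 6.84%.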

How the data were processed

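RNA from 12 spleen pools was sequenced with a directional library kit, and 1 table of expected counts per Trinity transcript was used. The deposited values are whole numbers and are treated as rounded expected counts from RSEM, which the submitters' processing notes name with Trimmomatic 0.39, FastQC, Bowtie2 and DESeq2. Not given in the sources used here: their roles and the settings for assembly and strand.

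Counts of 58975 transcripts were summed to 42480 Trinity genes. Tests used edgeR 4.0.16 in R 4.3.3 (filterByExpr, TMM scaling, robust quasi-likelihood fit, two-sided, Benjamini-Hochberg adjustment over all genes tested), with DESeq2 1.42.0 and limma 3.58.1 (voom) as alternatives, and were tested on simulated data. DESeq2 gave no p for 29 members in its fit of all libraries, so its counts from that fit are out of 171 members. The replicates are the pools, which hold separate fish. The count floor covers counting error only. The SEs were derived from the edgeR tests over pools, as the absolute log2 fold change divided by the square root of the F statistic. They are not limited to counting error. Fragments carry no molecular identifiers. By rule, the identifiers printed are those of the 2 members with the highest scores; no member was called higher in LPS 4 h replicate 2 by edgeR, so none was added. Others are given by rank, and those singled out for a level or a p were chosen after their values were seen. The members and lists were chosen with earlier results of these data known. Left-out libraries, other scalings, filters and rule settings were tried, and TMM-scaled totals for pool order and correlations were added after seeing the data.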

Additional observations from a re-analysis of the deposited data

How the results depend on the processing

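The counts of members called depended on the tool and on LPS 4 h replicate 2. For LPS against PBS at 4 h, edgeR called 0 members, beside 0.00307% of genes, and DESeq2 36, beside 1.82%. Leaving out 1 library at a time gave 0 to 199. For 24 h against 4 h in LPS pools, edgeR called 10 members, beside 3.14% of genes. DESeq2 called 49, beside 8.18%, and limma-voom 40, beside 3.34%, with 0 to 199 over left-out libraries. For the difference of the LPS effects, DESeq2 called 7, beside 2.3% of genes, with 0 to 199 over left-out libraries. The value of 199 came in each case without LPS 4 h replicate 2, beside 11.2%, 15.8% and 9.53% of genes in turn. These comparisons contain libraries that chose the members, so nothing is read from the counts. DESeq2 called 1 member for 24 h against 4 h in PBS pools, beside 0.976% of genes, where edgeR called 0 under every left-out library. For LPS 4 h replicate 2 against the 24 h pools the tools also differed, as given above. The cause of these differences between tools was not tested.

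Between pools of different groups, the deviations from the group means had correlations of -0.408 to 0.177 for pools with the same number. For pools with different numbers they were -0.354 to 0.408. These ranges overlap and cannot settle whether the replicate numbers pair the pools. With a replicate block, edgeR called 0 members in each of the 5 comparisons that share numbers, 24 h against 4 h in LPS pools included. Over all genes it called 473 of 32542 between LPS and PBS at 24 h and 0 in each other comparison.

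Of the 200 members, 133 were chosen again with a narrower 24 h window and 19 with all 3 LPS 4 h pools in the score, while other rule settings kept 154 to 188 and left-out libraries 160 to 192. The median log2 difference of the LPS 4 h and PBS 4 h means was -1.28, and -2.58 without LPS 4 h replicate 2. It was -0.912 without LPS 4 h replicate 1 and -0.907 without LPS 4 h replicate 3. With TMM-scaled totals, LPS 4 h replicate 2 lay below all 24 h pools for 38 members (19.0%), beside 9.11% of the eligible genes. Without that scaling it was 23 members (11.5%), beside 6.48%. With 3 pools a group and 1 unscored LPS 4 h library, small differences were not detectable. In the simulated data for LPS against PBS at 4 h, edgeR called 3 of 68 genes changed 2-fold, so most 2-fold changes were missed. It called 58 of 68 genes changed 4-fold, 58 of 64 changed 8-fold, and 7 unchanged genes. The comparison of LPS 4 h replicate 2 with the 24 h pools was not simulated.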

Other observations

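The 24 h window set aside some genes with equally low scored LPS pools. Of the genes at 5 CPM or more in PBS 4 h pools, 256 had a score at least as high as the member at rank 200, of which 200 (78.1%) lay inside the window, beside 74.4% of all 15925 such genes. Another 35 lay below the window, with a median LPS 24 h to PBS 24 h ratio of 0.571. Their median level was 56.0% of the PBS 4 h mean under LPS at 24 h and 102% under PBS, and LPS 4 h replicate 2 stood at 75.6%. A further 21 lay above the window, with a median ratio of 1.95 and medians of 108% under LPS at 24 h and 46.8% under PBS. These values are a description, since the score and the window chose the genes.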
